A study of Mus musculus with 40 samples.

Results

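The livers of ovariectomized females and castrated males that carried a placebo pellet were compared, which asks which sex differences of the liver remain when neither sex has gonads and neither receives a sex hormone. The animals were chosen by the surgery and pellet in their labels, 5 ovariectomized females (animals 16 to 20) and 5 castrated males (animals 24 to 28), that is 10 of the 40 mice of the study. All 40 were C57BL/6J, an inbred laboratory strain, fed chow with 4% fat and killed at 14 weeks of age after a 12 h fast. The gonads of the operated mice were removed at 8 weeks of age, and a subcutaneous pellet made to release over 21 days was implanted at 12 weeks. The other mice, 5 per sex in each setting, were intact, or were gonadectomized in the same way and given 0.5 mg of estradiol or 5 mg of dihydrotestosterone (DHT, an androgen that is not converted to estrogen). A sham operation or a pellet in the intact mice is not mentioned in the labels, so surgery and pellet cannot be told apart from loss of the gonads where placebo is set against intact mice. Each liver had 1 array, and each value is the log2 ratio of that liver, labelled with Cy5, to 1 pool, labelled with Cy3. The sample titles describe the pool as liver from C57BL/6J mice on chow (n = 40). A value of 1 is therefore a 2-fold ratio to the pool, and levels of different probes cannot be set against each other.

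Many liver genes differ between male and female mice, among them cytochromes P450, sulfotransferases and enzymes of steroid breakdown. In rodents most of this pattern is known to follow the sex-specific rhythm of growth hormone release from the pituitary, which gonadal steroids shape and which liver cells read through the transcription factor STAT5B. Sulfotransferases of the Sult2a family attach sulfate to hydroxysteroids and bile acids, and mouse liver is known to express them mainly in females.

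On placebo the sexes differed in few genes. Ovariectomized females had more transcript of the sulfotransferase genes Sult2a1 and Sult2a2 and of Dct, a gene of melanin synthesis, and castrated males had more of Gcsh, which encodes the H protein of the glycine cleavage system, and of Impg1, which encodes a proteoglycan of the matrix between photoreceptors. With limma and a Benjamini-Hochberg adjusted p under 0.05, 16 of 23574 probes were called (0.0679%), 7 higher in ovariectomized females (0.0297%) and 9 lower (0.0382%). Of these 16, 4 were probes of named Y-linked genes and 3 had no gene name, and the other 9, 7 higher and 2 lower, belong to the 5 autosomal genes above. At an unadjusted p under 0.05 there were 1277 probes (5.42%). The median 95% confidence interval of a sex difference reached 0.19 to either side on the log2 scale.

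The promoters of the 3 called genes for which RefSeq holds one are shown so that the start regions of Gcsh, Impg1 and Dct can be read beside their values. Each line gives the 250 bases before the annotated start, 5′ to 3′ on the gene's own strand, in assembly GRCm38.p6. Capitals mark the half-sites found by the search described after the lines.
Gcsh, chr8:116993499-116993748, minus strand: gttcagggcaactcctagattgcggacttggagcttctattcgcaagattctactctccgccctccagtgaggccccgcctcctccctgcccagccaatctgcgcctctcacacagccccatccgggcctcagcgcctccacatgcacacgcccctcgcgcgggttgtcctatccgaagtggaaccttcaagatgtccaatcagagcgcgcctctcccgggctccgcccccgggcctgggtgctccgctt
Impg1, chr9:80465439-80465688, minus strand: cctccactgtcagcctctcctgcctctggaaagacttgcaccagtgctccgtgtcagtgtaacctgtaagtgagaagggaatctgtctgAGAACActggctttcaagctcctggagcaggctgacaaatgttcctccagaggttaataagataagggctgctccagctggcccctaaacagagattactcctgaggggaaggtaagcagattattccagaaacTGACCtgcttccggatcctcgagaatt
Dct, chr14:118052247-118052496, minus strand: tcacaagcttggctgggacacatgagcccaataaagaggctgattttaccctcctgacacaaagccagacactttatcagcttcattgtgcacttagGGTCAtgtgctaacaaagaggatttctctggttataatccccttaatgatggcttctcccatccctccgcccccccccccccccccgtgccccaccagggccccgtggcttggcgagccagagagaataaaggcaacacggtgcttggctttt

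Both strands were searched for the STAT5 motif TTCNNNGAA, for the estrogen half-site GGTCA and for the androgen and glucocorticoid half-site TGTTCT. None of the 3 windows holds the STAT5 motif, which 7.02% of 32851 RefSeq promoter windows of the same length hold. The Impg1 window holds 1 androgen and glucocorticoid half-site, read on the other strand as AGAACA, and 1 estrogen half-site, read as TGACC. The Dct window holds 1 estrogen half-site and the Gcsh window holds neither. These short motifs occur in 16.1% (TGTTCT) and 35.2% (GGTCA) of all such windows, so a match describes the sequence only.

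The Y-linked genes checked the labels. Of 6 listed Y-linked genes measured, 3 were called lower in ovariectomized females and 0 higher, and the members ran up to 0.07. Eif2s3y, a Y-linked translation factor subunit, lay at -5.27, -3.82, -4.34, -4.24 and -5.18 in the ovariectomized females, against 0.66, 0.70, 0.35, 1.33 and 1.28 in the castrated males. Kdm5d, a Y-linked histone demethylase gene, differed by -2.31 ± 0.35 (SE) and Ssty1, a gene of a multicopy Y family, by -1.05 ± 0.15, with limma adjusted p of 0.000457 and 0.000374. Gm20747, also Y-linked, differed by -1.50 ± 0.16. All 20 females of the study lay below all 20 males for Eif2s3y, Kdm5d and Ssty1. The largest difference of all belonged to a probe without a gene name, at -6.50 ± 0.29, which separated all 20 females from all 20 males in the same direction as the Y-linked genes, and its identity was not determined here. The X-linked Eif2s3x differed by 0.39 ± 0.12 on placebo with a limma adjusted p of 0.456.

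Sult2a1 lay at 1.02, 0.10, 2.09, 2.21 and 0.33 in the ovariectomized females on placebo, against -2.99, -3.53, -3.59, -2.02 and -1.01 in the castrated males. Every ovariectomized female lay above the pool and every castrated male below it, without overlap. The difference was 3.77 ± 0.61 (SE), or 13.7-fold, with a limma adjusted p of 0.000994. With each array scaled to 1 spread it was 3.76 ± 0.80 and did not pass (adjusted p = 0.0627 in limma).

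Sult2a2, the neighbouring family member, lay at 1.14, 0.43, 1.87, 1.78 and 0.69 in the ovariectomized females, against -3.94, -4.55, -4.93, -2.30 and -1.04 in the castrated males. The groups did not overlap, and for both genes animals 27 and 28 were the castrated males with the highest values. The difference for Sult2a2 was 4.53 ± 0.82, or 23.1-fold, with a limma adjusted p of 0.00579. With each array scaled to 1 spread it was 4.42 ± 1.10 and did not pass (adjusted p = 0.190 in limma). All 6 probes of the 2 genes were called in the same direction. The second Sult2a1 probe differed by 2.53 ± 0.42, and the other Sult2a2 probes by 5.14 ± 0.82, 3.08 ± 0.50 and 2.24 ± 0.36, with limma adjusted p from 0.000949 to 0.00131. The Sult2a genes of the mouse are close copies, and how far their probes keep them apart was not tested. The Sult2a2 probes carry an old clone name in the array annotation, which RefSeq lists as a synonym of that 1 gene. Of 14 sulfotransferase genes measured, these 2 rose and 0 fell. The median over the 14 was 0.06 (all probes -0.01). Among the uncalled members, Sult3a1 differed by 1.24 ± 0.64 (adjusted p = 0.947 in limma, another probe 0.63) and Sult5a1 by 0.51 ± 0.19. Sult1a1, a phenol sulfotransferase gene named after its values were seen, differed by -0.37 ± 0.26 without overlap (adjusted p = 1 in limma), against 1.06 in intact mice.

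Gcsh lay at -0.70, -0.33, -0.59, -0.58 and -0.62 in the ovariectomized females, against 0.83, 0.55, 0.66, 0.18 and 0.45 in the castrated males. The groups did not overlap, and the spread within each was small beside the gap. The difference was -1.10 ± 0.17, a 2.14-fold higher ratio in castrated males, with a limma adjusted p of 0.000571. Gcsh was the 1 called gene of 15 measured in glycine cleavage and one-carbon metabolism, where the median was -0.10 and the remaining members ran up to 0.16. Mtr, the methionine synthase gene, differed by -0.08, Ahcy, which breaks down S-adenosylhomocysteine, by -0.28, and Cbs, which starts the conversion of homocysteine to cysteine, by -0.18, and none of these passed.

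Impg1 lay at -0.14, -0.12, -0.25, -0.29 and -0.06 in the ovariectomized females, against 0.36, 0.16, 0.42, 0.15 and 0.25 in the castrated males. Every ovariectomized female lay below the pool and every castrated male above it. The difference was small, -0.44 ± 0.07 or 1.36-fold, with a limma adjusted p of 0.00136. Impg1 is known as a retinal gene, and as the signal over background is unknown here, its level in the liver could not be judged.

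Dct encodes dopachrome tautomerase, an enzyme of pigment cells. It lay at 0.02, 0.08, 0.56, 1.20 and -0.23 in the ovariectomized females, against -2.12, -1.73, -1.62, -1.74 and -0.67 in the castrated males. The groups did not overlap, with animals 20 and 28 nearest to each other. The difference was 1.90 ± 0.36, or 3.74-fold, with a limma adjusted p of 0.0132, and it kept an adjusted p under 0.05 in only 5 of the 10 fits that left out 1 animal. With each array scaled to 1 spread it was 1.92 ± 0.41 and did not pass (adjusted p = 0.0627 in limma). Of 11 measured genes of melanin synthesis, Dct rose and 0 fell, with a median of -0.02. Among the others Slc45a2, a melanosome transporter gene, differed by -0.12 ± 0.10, and Pmel and Gpnmb, which encode melanosome proteins, by -0.10 ± 0.09 and -0.09 ± 0.09.

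**Figure D1:**
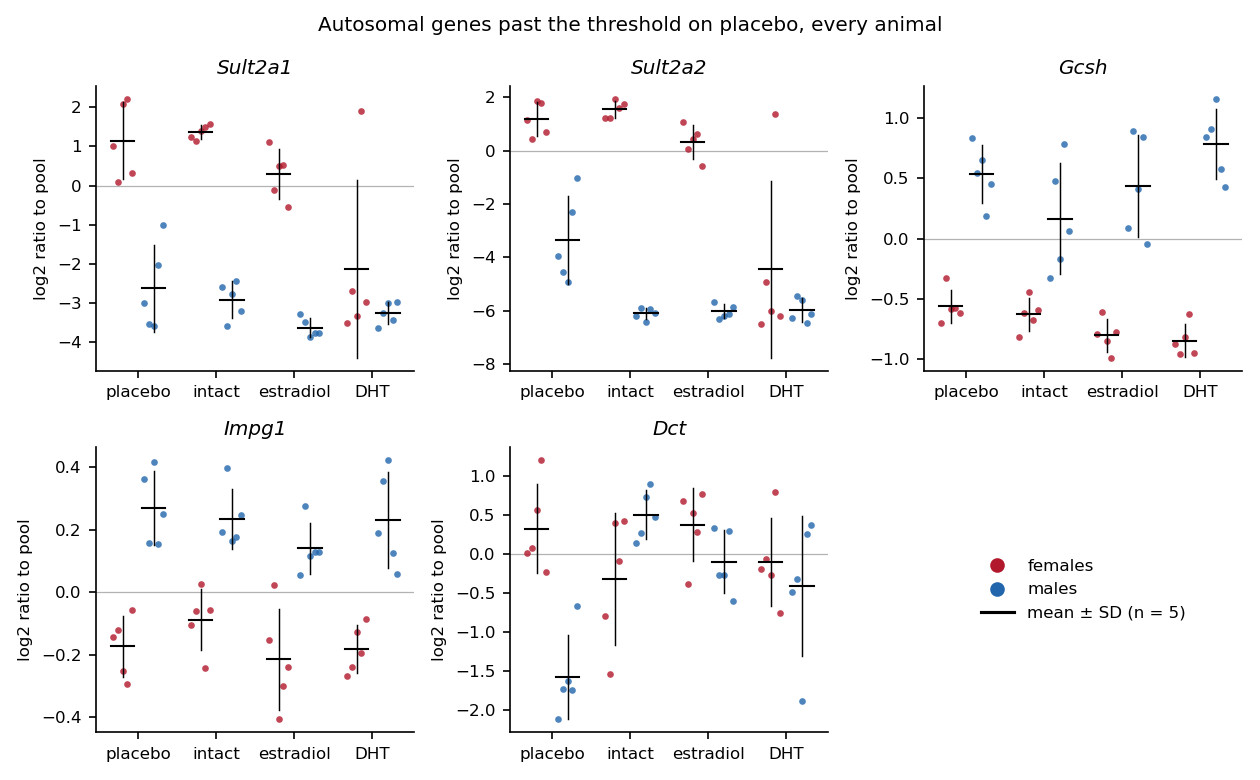
Log2 ratio to the pool (vertical axis) of the 5 autosomal genes called on placebo, for every animal in the 4 settings (horizontal axis), with females in red left of males in blue and black lines for the mean ± SD of 5 animals. On placebo the sexes do not overlap in any panel, while in the DHT setting they overlap for Sult2a1, Sult2a2 and Dct.

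The same sex contrast was then read in the 30 animals outside the placebo groups. In intact mice 2048 probes were called (8.69%), 3.33% higher in females and 5.36% lower. On estradiol 32 probes were called (0.136%) and on DHT 19 (0.0806%). Of the 16 probes called on placebo, 14 were called in the same direction in intact mice, 14 on estradiol and 9 on DHT. Of the 9 probes of the 5 autosomal genes, 8 were called in intact mice, 8 on estradiol and 2 on DHT. The tests of placebo against estradiol and against DHT called 0 probes each (0%) in limma, with 973 (4.13%) and 1790 (7.59%) at an unadjusted p under 0.05. The count for DHT moved with the animals and weights in the fit. The test of placebo against DHT called 4 probes without placebo animal 20 and 762 with array weights. Without animal 53, an ovariectomized female on DHT, it called 7 probes. Among these were the shown probes of Sult2a1 (3.65 ± 0.55, limma adjusted p of 0.000765) and Sult2a2 (4.47 ± 0.65, 0.000463), and not Gcsh, Impg1 or Dct.

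Gcsh and Impg1 were called with the same direction in all 4 settings, although Impg1 lost its call on DHT without animals 53 and 61 (adjusted p = 0.0863 in limma). For both, the 20 females and the 20 males of the study formed ranges that did not overlap, with the females lower. For Gcsh the highest female lay at -0.33 and the lowest male at -0.33, next to each other, and for Impg1 at 0.03 and 0.05. The Gcsh difference was -1.64 ± 0.17 on DHT, -1.24 ± 0.17 on estradiol and -0.80 ± 0.17 in intact mice, and that of Impg1 -0.41 ± 0.07, -0.36 ± 0.07 and -0.32 ± 0.07 in the same order.

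Sult2a1 was called in intact mice at 4.28 ± 0.61 and on estradiol at 3.92 ± 0.61, while on DHT the difference was 1.13 ± 0.61 (adjusted p = 0.621 in limma). On DHT the ovariectomized females ran from -3.51 to 1.90, against -3.64 to -2.96 in the castrated males. The high value belongs to animal 53, which stands apart from the other DHT females across the sex-biased genes, and without it the Sult2a1 difference on DHT was 0.12 ± 0.40. For the shown probes the placebo difference of Sult2a1 was 88.1% of the intact one and that of Sult2a2 59.2%. The test of the difference between the settings passed for neither (-0.51 ± 0.86 and -3.12 ± 1.16, limma adjusted p of 0.801 and 0.137). The second Sult2a1 probe differed by 2.53 on placebo and by 2.34 in intact mice. The other Sult2a2 probes differed by 5.14, 3.08 and 2.24 on placebo, against 6.85, 4.43 and 2.99 in intact mice. In the castrated males on placebo Sult2a2 averaged -3.35 ± 1.64 (SD, n = 5), against -6.10 ± 0.21 in intact males, and in ovariectomized females 1.18 ± 0.64, against 1.55 ± 0.32 in intact females.

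Of the 4 settings, Dct was called on placebo alone. Its sex difference was 0.31 ± 0.36 on DHT, 0.48 ± 0.36 on estradiol and -0.82 ± 0.36 in intact mice, and placebo differed from intact by 2.73 ± 0.52 with a limma adjusted p of 0.00108. The castrated males on placebo averaged -1.58 ± 0.54 (SD, n = 5), against 0.50 ± 0.31 in intact males, and the ovariectomized females 0.33 ± 0.57, against -0.32 ± 0.84 in intact females.

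The sex difference of intact livers was in large part not called on placebo. The sex difference on placebo differed from that in intact mice at 1038 probes (4.4%), 655 where it was more positive (2.78%) and 383 where it was more negative (1.62%), in the test of the difference itself. Among them were 884 of the 2048 probes called in intact mice (43.2%), 499 of the 1124 named autosomal ones (44.4%) and 78 of the 103 named autosomal ones that differed at least 2-fold (75.7%). These probes were chosen by the same intact animals that enter this test. The choice can raise both these shares and the intact sizes given next. On placebo the 47 probes higher in intact females had a median difference of 0.20 in that direction, against 1.64 in intact mice, with 30 of the same sign and 6 called, which are the Sult2a probes. The 56 probes higher in intact males had a median of -0.08 in the male direction, against 1.40 in intact mice, with 16 of the same sign and 0 called, and 40 had the opposite sign.

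**Figure D2:**
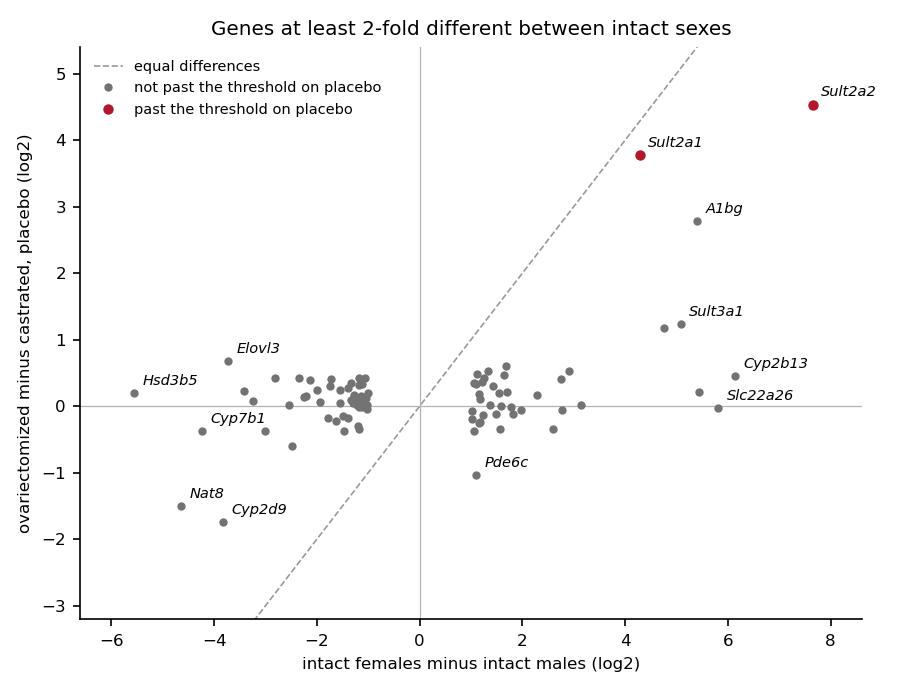
Sex difference on placebo (vertical axis, ovariectomized minus castrated, log2) against that in intact mice (horizontal axis, female minus male, log2) for the 95 autosomal genes at least 2-fold different in intact mice. Points near 0 on the vertical axis show no placebo difference, and Sult2a1 and Sult2a2, at 3.77 and 4.53, are the 2 genes past the threshold on placebo.

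Among the genes most female-biased in intact mice, the cytochrome P450 genes Cyp2b13 and Cyp2b9 differed on placebo by 0.45 ± 0.72 and 0.21 ± 0.61. Their intact differences were 6.14 ± 0.72 and 5.43 ± 0.61. Cyp2b13 lay between 0.71 and 1.32 in ovariectomized females and between 0.26 and 0.81 in castrated males, all above the pool, and intact males lay between -6.06 and -4.80. The organic anion transporter genes Slc22a26 and Slc22a27 differed by -0.03 ± 0.56 and 0.02 ± 0.37. Cyp2c40 differed by -0.06 ± 0.34, and Cyp17a1, a steroid hydroxylase and lyase gene, by 0.53 ± 0.44. For these 6 genes the change of the sex difference between placebo and intact mice ran from -5.84 to -2.37 and passed in limma. Further probes of Cyp2b13, Cyp2b9 and Cyp2c40 read -0.18 to 0.21 on placebo and -0.01 to 1.57 in intact mice, so the intact sizes above belong to the probe with the largest spread.

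3 further female-biased genes kept a positive difference that did not pass. A1bg, which encodes a plasma glycoprotein, lay at 2.06, 0.62, 1.94, 2.09 and 0.71 in ovariectomized females, against -0.98, -2.28, -1.24, 0.02 and -2.04 in castrated males. The groups did not overlap, and the difference was 2.79 ± 0.77 (adjusted p = 0.364 in limma), or 51.5% of the intact one. Hao2, a hydroxy acid oxidase gene, differed by 1.18 ± 0.61 and Sult3a1 by 1.24 ± 0.64, and both changed against intact mice, by -3.58 ± 0.87 and -3.84 ± 0.90. Another Sult3a1 probe read 0.63 on placebo and 0.86 in intact mice, a change of only -0.23.

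Among the genes most male-biased in intact mice, Hsd3b5, a ketosteroid reductase gene, differed on placebo by 0.19 ± 0.73 (another probe by 0.07). It lay between -4.11 and -3.60 in ovariectomized females and between -4.32 and -3.84 in castrated males, far below the 1.34 to 2.26 of intact males. Cyp7b1, an oxysterol hydroxylase gene, differed by -0.38 ± 0.68, Cyp4a12a, a fatty acid hydroxylase gene, by 0.08 ± 0.35, the monooxygenase-like Moxd1 by 0.23 ± 0.49, the pseudogene Serpina4-ps1 by 0.43 ± 0.69, Cd248 by 0.03 ± 0.32 and the asparagine synthetase gene Asns by -0.37 ± 0.41. The fatty acid elongase gene Elovl3 lay at -1.59, -1.54, -1.41, -1.45 and -1.60 in ovariectomized females, against -2.34, -1.86, -2.51, -2.05 and -2.21 in castrated males. These groups did not overlap, in the direction opposite to intact mice, but the difference of 0.67 ± 0.41 did not pass (adjusted p = 1 in limma). It passed with only the placebo groups in the fit, with an SE of 0.11 (limma adjusted p of 0.0372).

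3 of the 54 autosomal genes at least 2-fold higher in intact males had a negative placebo difference without overlap, Nat8, Cyp2d9 and Asns. In the opposite direction 1 did not overlap, Elovl3. Of all probes 1.47% did not overlap, counting both directions. The small Asns difference given above came from -1.64 to -1.37 in ovariectomized females, against -1.30 to -0.90 in castrated males. The N-acetyltransferase gene Nat8 lay at -2.48, -2.33, -2.88, -2.63 and -2.45 in ovariectomized females, against -1.86, -0.85, -1.18, -1.26 and -0.12 in castrated males, a difference of -1.50 ± 0.34 (adjusted p = 0.107 in limma). The cytochrome P450 gene Cyp2d9 lay at -2.78, -2.84, -3.50, -3.58 and -2.94 in ovariectomized females, against -1.54, -1.20, -1.14, -1.72 and -1.31 in castrated males, a difference of -1.75 ± 0.42 (adjusted p = 0.166 in limma). Both genes were called on estradiol, at -1.91 ± 0.34 and -2.13 ± 0.42. Nat8 was called in 3 of the 4 settings, all but placebo, and Cyp2d9 in 2. On placebo Nat8 passed in 1 of the 10 fits that left out 1 animal (limma adjusted p of 0.0378), and Cyp2d9 in 0. With only the placebo groups in the fit, Cyp2d9 and A1bg passed with the same differences (limma adjusted p of 0.00186 and 0.0366) and Nat8 did not. Without animals 53 and 61 of the DHT groups, a choice made after seeing the data, Nat8, Cyp2d9 and A1bg passed with the same differences (limma adjusted p of 9.96e-06, 2.96e-05 and 0.00899), since the pooled SD of Nat8 was then 0.30 in place of 0.53, that of Cyp2d9 0.37 in place of 0.67 and that of A1bg 0.82 in place of 1.21.

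**Figure D3:**
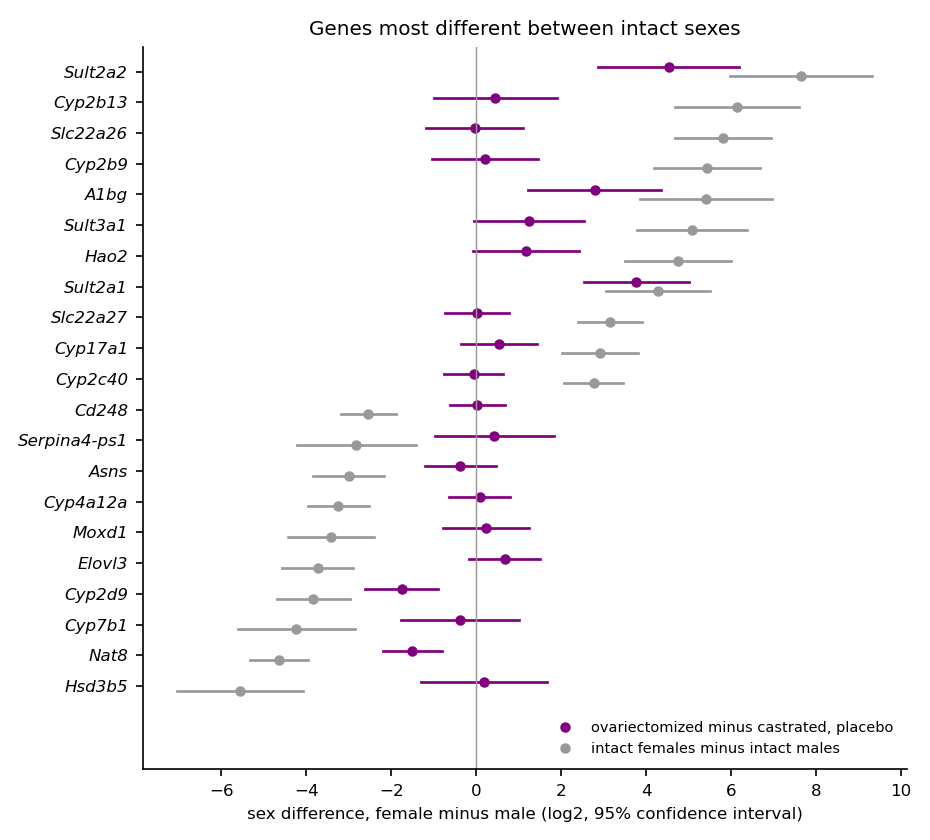
Sex difference (horizontal axis, female minus male, log2, with 95% confidence intervals from limma) of 21 genes strongly different in intact mice, on placebo in purple above intact mice in grey. The placebo intervals of Sult2a1, Sult2a2, A1bg, Nat8 and Cyp2d9 lie on the same side of 0 as in intact mice, and the remaining placebo intervals hold 0.

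Averaged per animal, the 47 probes higher in intact females lay at 0.41 ± 0.21 (SD, n = 5) in ovariectomized females on placebo, against -0.21 ± 0.18 in castrated males, without overlap (0.20 to 0.67 against -0.43 to -0.02). Without the 6 Sult2a probes the means were 0.31 ± 0.13, against 0.11 ± 0.11, and the groups overlapped (0.19 to 0.49 against -0.01 to 0.26). In intact mice, by which the probes were chosen, the same 41 probes lay at 0.39 ± 0.10 in females and -1.77 ± 0.10 in males. The 56 probes higher in intact males lay at -0.86 ± 0.06 in ovariectomized females, against -0.89 ± 0.10 in castrated males, both close to the -0.89 ± 0.07 of intact females and far from the 0.96 ± 0.21 of intact males.

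**Figure D4:**
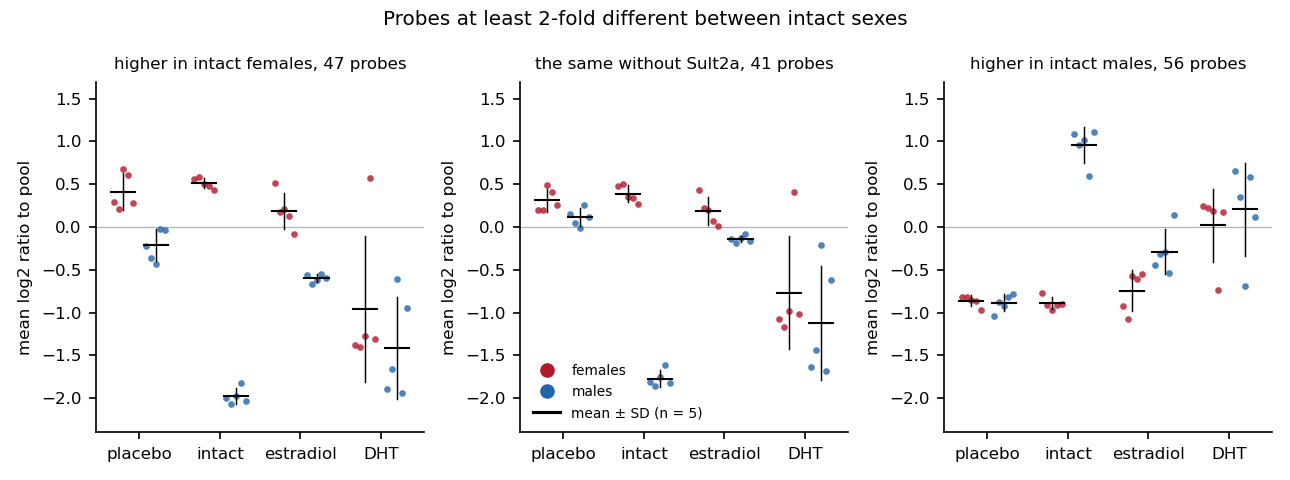
Mean log2 ratio to the pool (vertical axis) of the autosomal probes at least 2-fold different in intact mice, per animal and setting (horizontal axis), with females in red left of males in blue and black lines for the mean ± SD of 5 animals. On placebo the male-higher probes lie at -0.86 and -0.89 in the 2 sexes, and 1 DHT female (animal 53) lies far above the other 4 in the first 2 panels.

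Beyond the called genes, the autosomal genes with the smallest p that were higher in ovariectomized females include the deiodinase gene Dio1, which activates thyroid hormone. Dio1 lay at 0.03, 0.40, 0.43, 0.12 and 0.23 in ovariectomized females, against -0.45, -1.09, -0.30, -0.79 and -0.72 in castrated males. The groups did not overlap and the difference was 0.91 ± 0.22 (adjusted p = 0.149 in limma), but another probe of the gene read -0.01. The first probe passed with only the placebo groups in the fit (limma adjusted p of 0.0322) and with array weights (0.0331). Smyd3, a lysine methyltransferase gene, differed by 0.58 ± 0.13, Smad7, an inhibitor of TGF-beta signalling, by 0.54 ± 0.13, Csrp3 by 0.48 ± 0.12, the fatty acid receptor gene Ffar4 by 0.44 ± 0.11, Gphn by 0.41 ± 0.10 (another probe -0.04), Stau2 by 0.39 ± 0.10, the N-acetylglucosamine kinase gene Nagk by 0.36 ± 0.08 and Exoc7 by 0.17 ± 0.04, with limma adjusted p from 0.113 to 0.28. With array weights Smyd3, Smad7, Csrp3, Ffar4 and Exoc7 passed (limma adjusted p from 0.0123 to 0.0408).

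Among the genes lower in ovariectomized females, Lpin1 encodes a phosphatidate phosphatase that also acts as a coactivator in fasting liver. It lay at -0.97, -0.68, -1.59, -1.39 and -1.45 in ovariectomized females, against 0.18, -0.10, -0.32, 0.96 and 0.47 in castrated males. The groups did not overlap, and the difference was -1.45 ± 0.35 (adjusted p = 0.162 in limma). It passed with only the placebo groups in the fit (limma adjusted p of 0.0426). Pde6c, known as a phosphodiesterase subunit of cone photoreceptors, lay at 0.07, 0.18, -0.16, -0.21 and -0.20 in ovariectomized females, against 1.37, 1.10, 0.57, 1.24 and 0.61 in castrated males, a difference of -1.04 ± 0.31 (another probe -0.09) that passed with only the placebo groups in the fit (limma adjusted p of 0.0322). In intact mice the same Pde6c probe was higher in females by 1.09 ± 0.31, and the change of -2.13 ± 0.44 passed with a limma adjusted p of 0.00248. Ankhd1 differed by -1.34 ± 0.37 (another probe -0.04), Urad by -0.27 ± 0.07, Btf3 by -0.25 ± 0.07 (other probes 0.03 and -0.10), the phosphatase gene Dusp14 by -0.20 ± 0.06, Fbxl16 by -0.19 ± 0.05 and Adamts19 by -0.13 ± 0.04, and none of these passed. With array weights Fbxl16 and Adamts19 did (limma adjusted p of 0.0377 and 0.0385). The placebo groups did not overlap at 346 of all probes (1.47%).

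Lists of genes known from mouse liver were read in the same animals. These lists share genes with the results above and are no separate support. Of 30 known female-biased genes measured, 2 rose on placebo and 0 fell, with a median of 0.08 (all probes -0.01), and in intact mice 18 were higher and 1 lower, with a median of 0.99. Of 20 known male-biased genes, 0 were called on placebo, with a median of 0.03, and in intact mice 17 were lower in females, with a median of -1.86. The difference between placebo and intact mice passed for 16 of these 20 and for 12 of the 30. In the list of steroid hormone metabolism 1 of 21 genes rose, Sult2a1, and 0 fell. Of 18 genes of the growth hormone and STAT5 axis 0 were called, with Stat5a at 0.46 ± 0.21 and without overlap, Foxa1 at 0.31 ± 0.13, Hnf4a at -0.13 ± 0.05 and the STAT5 antagonist Bcl6 at -0.13 ± 0.06. The list median was -0.04, with 8 positive and the lowest member at -0.48. In each direction 1 gene of the list did not overlap, against 1.47% of all probes in both directions. Stat5a passed with only the placebo groups in the fit (limma adjusted p of 0.0122).

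In metabolism, 0 of 22 genes of fatty acid oxidation and ketone formation passed, with a median of 0.09 and 16 positive. The 4 with the smallest p were Bdh1, which reduces acetoacetate, at 0.55 ± 0.16, Ppara, the fasting-sensing nuclear receptor gene, at 0.41 ± 0.16, the pyruvate dehydrogenase kinase gene Pdk4 at 0.61 ± 0.25, and Cpt2, which returns fatty acids to their CoA form in mitochondria, at 0.26 ± 0.11. Of 15 genes of bile acid synthesis and transport 0 passed, with the bile salt pump gene Abcb11 at 0.35 ± 0.12, the phospholipid floppase gene Abcb4 at 0.36 ± 0.16 and the bile acid conjugation gene Baat at -0.25 ± 0.12. Lists of cholesterol synthesis (16 genes), fatty acid synthesis (17), glucose output (15), the clock (17), foreign compound metabolism (21), the acute phase (28), the unfolded protein response (13), sex steroid receptors (11), the cell cycle (19) and iron and heme (13) held 0 called genes each and medians between -0.02 and 0.10. The 12 glucocorticoid-responsive genes held 0 called genes, with a median of -0.13 and 3 positive. Of 18 interferon response genes 0 passed, with a median of 0.11 and 16 positive, led by Oasl2 at 0.46 ± 0.21, and the list mean per animal overlapped between ovariectomized females (-0.31 to 0.67) and castrated males (-0.36 to 0.37).

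Marker genes of the cell types a piece of liver can hold were read for the same animals, because in bulk tissue fewer cells of a type and less RNA per cell cannot be told apart. None of the markers of hepatocytes (8 genes measured), T and B cells (13), Kupffer cells (13), neutrophils (8), endothelium (11), stellate cells (10), bile ducts (4), red cells (7), fat cells (5), pancreas (4) or skeletal muscle (4) was called on placebo. The list medians lay between -0.10 (T and B cells, 1 of 13 positive) and 0.05 (Kupffer cells). The T and B cell list averaged -0.09 to 0.08 per ovariectomized female, against -0.01 to 0.21 per castrated male. As ratios to a pool of livers show no absolute level, the labelled tissue could not be checked by the presence of hepatocyte genes.

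**Figure D5:**
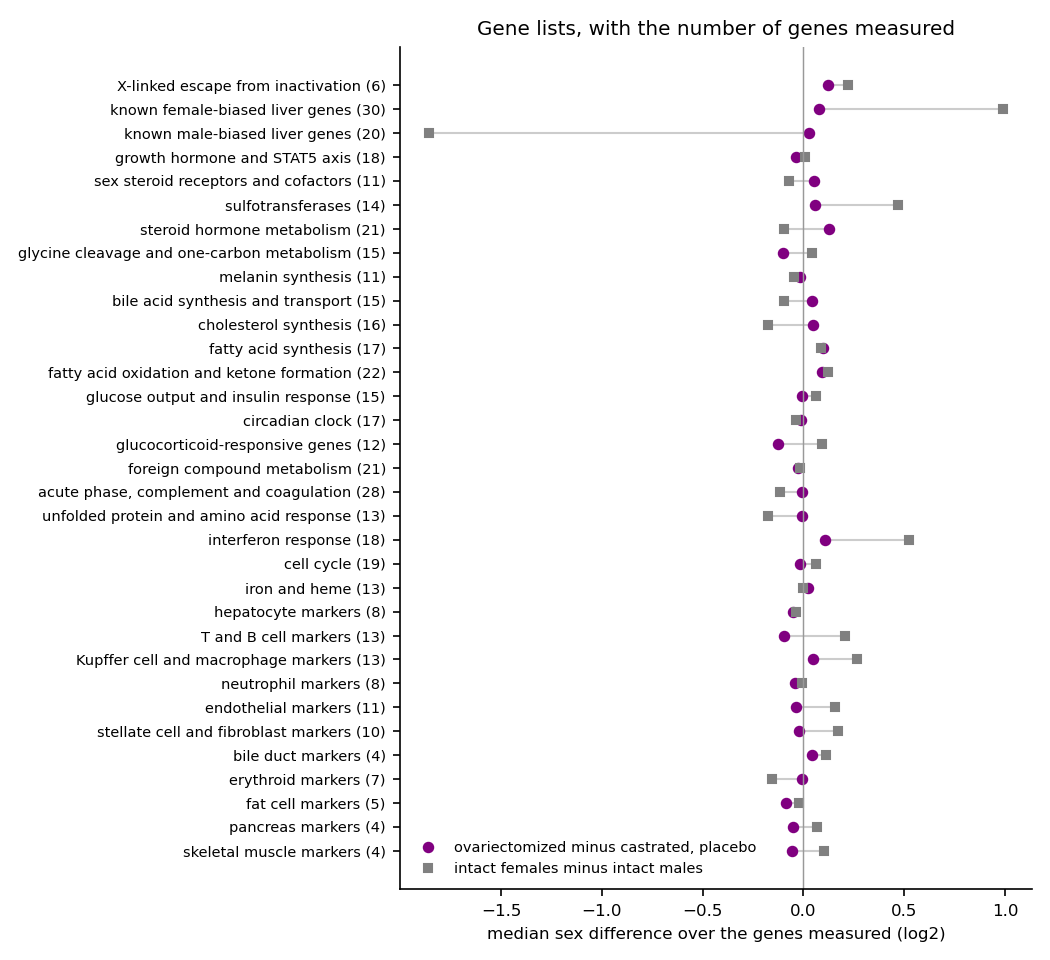
Median sex difference (horizontal axis, log2) over the measured genes of each list (vertical axis, number of genes in brackets), on placebo as purple circles and in intact mice as grey squares. The known female-biased and male-biased lists lie at 0.08 and 0.03 on placebo and at 0.99 and -1.86 in intact mice.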

How the data were processed

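The data are 2-colour arrays of 40 mouse livers, 1 array and 1 animal each, so replicates are separate animals. The deposited values were read as log10 ratios of liver (Cy5) over a pool (Cy3), with dyes per the labels and no swap. No header states the log base. The background correction and normalization by the authors are not given in the sources used here. No scanner signal was analysed here, and precision is limited by how many arrays there are. The deposited log10 values, which stop at -2 and 2, were converted to log2 for this work. Read as log10, Eif2s3y in males averaged 1.94-fold over the pool, below the 2-fold that an even pool of both sexes allows. Read as natural log or log2 it averaged 1.33-fold and 1.22-fold, also below that bound, so the bound could not tell the bases apart. Of 780 array pairs 28 correlated below -0.3 (lowest -0.47), 0 of them among the 45 placebo pairs (lowest -0.05). The dyes are stated and ratios to 1 shared liver pool let conditions oppose, so the direction was kept.

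Names came from the platform annotation where RefSeq (GRCm38.p6) holds the gene, with 14 probes named through a clone synonym. This gave 12676 probes of 10852 genes, 10451 of them autosomal. The probe with the largest SD stood for a gene. All 40 arrays entered 1 model with a mean for each of the 8 groups (lmFit and eBayes of limma 3.58.1, R 4.3.3, 32 residual degrees of freedom), with 7 contrasts and Benjamini-Hochberg adjustment over all 23574 probes. No batch is given in the labels. On simulated data the fit recovered 43 of 50 changes of 1.5-fold and 49 of 50 of 2-fold on placebo. The simulated noise was normal and independent between probes, and more probes were changed there than were called in the livers. These rates can therefore be too high for the real data. Members and lists were chosen with earlier results of these data known. Named genes are those called, the 12 autosomal ones with the smallest p each way, the 10 highest and lowest in intact mice, the 8 most changed each way between placebo and intact mice, the 4 highest and lowest on estradiol and on DHT, and up to 4 members of each list. Alternatives covered normalization, scaling, samples in the fit, weights, the prior, the tests adjusted over and each animal left out.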

Additional observations from a re-analysis of the deposited data

Results flagged for a closer look

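The sex difference differed between placebo and intact mice, by the limma test of that difference, at 1038 probes. Values here are the placebo minus the intact sex difference on the log2 scale. Among genes higher in intact males it was positive: Hsd3b5 had 5.74, the elongase gene Elovl3 4.40, the hydroxylase gene Cyp7b1 3.86, and there were changes of 3.65 for Moxd1, 3.32 for Cyp4a12a, 3.25 for Serpina4-ps1, 3.14 for Nat8, 2.77 for the apoptosis gene Bmf, 2.63 for Asns, 2.57 for Cd248, 2.09 for Cyp2d9 and 1.60 for the steroid dehydrogenase gene Hsd3b2. Among genes higher in intact females it was negative: the transporter gene Slc22a26 had -5.84, the P450 genes Cyp2b13 and Cyp2b9 had -5.69 and -5.23, and there were changes of -3.84 for Sult3a1 (another probe -0.23), -3.58 for Hao2, -3.13 for Slc22a27, -2.95 for Rgs16, a regulator of G protein signalling, -2.82 for Cyp2c40, -2.37 for Cyp17a1 and -1.16 for the cyclin gene Ccnd1.

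A further group had a placebo difference of the opposite sign to the intact one. The change was 2.73 for Dct, 1.23 for the carbonic anhydrase gene Car1, 0.75 for Stau2 and 0.71 for Gphn, whose other probe changed the opposite way (-0.55), and it was -2.13 for Pde6c, -1.64 for Lpin1, -0.55 for Btf3, -0.45 for Fbxl16, -0.32 for Dusp14 and -0.22 for Adamts19. For Car1 the sex difference was 0.60 on placebo and -0.63 in intact mice.

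Single animals stood apart from the other 4 of their group in 13 of 164 groups of values examined. Because some of the genes were chosen after their values were seen, this count cannot be set against a chance rate. The acute phase genes Saa1 and Saa3 lay at 1.64 and 1.65 in ovariectomized animal 16, against at most -1.94 and -1.89 in the other ovariectomized females. The macrophage receptor gene Marco lay at 0.62 in castrated animal 27, and the aryl hydrocarbon response gene Cyp1a1 at 2.88 in castrated animal 28. Scgb2b27 lay at 2.76 in animal 17, Rbfox1 at 2.77 in animal 25 and Sema3e at -3.47 in animal 26. These 7 genes were chosen after their values were seen. Of fatty acid genes, Bdh1 lay at -0.20 and Ppara at -0.049 in animal 20, below the other ovariectomized females, and Cpt2 at -0.17 in animal 27. Ccnd1 lay at 0.30 in animal 25. The mean of female-higher minus male-higher intact probes was 1.31 in animal 53, an ovariectomized female on DHT whose group otherwise lay between -1.62 and -1.46, and -2.42 in intact male 11.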

How the results depend on the processing

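Against the 16 probes called on placebo, the count was 21 with quantile normalization (all 16 shared), 12 with each array scaled to 1 spread (3 higher and 9 lower), 16 with a robust prior, 31 with only the placebo groups in the fit (15 shared), 39 with array weights (16 shared), 9 when adjusted over named autosomal probes and 21 without animals 53 and 61. Of the 13 genes followed through the alternatives (the called ones, 3 Y-linked ones, Nat8, Cyp2d9, A1bg, Lpin1 and Dio1), none turned its direction. Most alternatives could not turn it, as the placebo groups of these genes do not overlap. The median of the known male-biased list went to -0.05 with quantile normalization, against 0.03. With arrays scaled to 1 spread, Sult2a1, Sult2a2 and Dct lost their call in limma at about the same differences (3.76, 4.42 and 1.92). Leaving out 1 animal gave 13 to 23 probes on placebo, 1455 to 2604 in intact mice, 19 to 47 on estradiol (19 without animal 36), 15 to 24 on DHT and 778 to 1243 for placebo minus intact. The range was 0 to 2 for placebo minus estradiol and 0 to 7 for placebo minus DHT (7 without animal 53, 4 without animal 20).

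Other counts that moved: in intact mice 1327 with scaling, 1249 with only those groups, 5443 with weights and 1156 over named autosomal probes. On estradiol they were 13 with only those groups and 77 with weights, and on DHT 1310 with weights and 3 over named autosomal probes. Placebo minus intact gave 530 with quantile normalization, 513 with scaling, 3007 with weights and 591 over named autosomal probes. Placebo minus estradiol gave 3 with weights and 1 over named autosomal probes, and placebo minus DHT 762 with weights and 9 without animals 53 and 61. The cause was not tested. No paired analysis was possible because the groups share no animal numbers.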

Other observations

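The first principal component of the deviations from the group means held 42.2% of the variance within the 2 groups, with castrated animals 26 (0.50) and 28 (-0.48) at its ends. The interferon-inducible genes Gbp2b and Igtp, chosen after their values were seen, lay at 1.39 and 1.60 in ovariectomized animal 18, against -0.02 and -0.03 in animal 16 and -1.18 and -0.75 in animal 17. Castrated males overlapped with ovariectomized females for both, with Igtp at 0.87 in animals 25 and 26.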
